A study of Mus musculus with 12 samples.

Results

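The MHC class II genes were examined in MLL-AF9 blasts, as the 7 rows of the deposited expression table whose symbols are H2-Aa, H2-Ab1, H2-Eb1, H2-DMa, H2-DMb1, Cd74 and Ciita, out of 24454 genes in all. All 7 reached a mean of 10 normalized counts over the 12 libraries and so were among the 11476 genes tested. Fetal liver cells of wildtype (WT) mice or of mice lacking STAT3β (Δβ), the short splice form of the transcription factor STAT3, had been transformed with a retrovirus carrying the MLL-AF9 fusion oncogene and a Venus reporter. They were injected into the tail vein of young adult male NSG mice (NOD.Cg-Prkdc scid Il2rg tm1Wjl/SzJ). At the disease endpoint Venus-positive blasts were sorted from spleen (SP) and bone marrow (BM), which gave 4 groups of 3 libraries. All groups thus share the oncogene, the reporter and the host, and differ in the genotype of the fetal liver cells and in the organ. NSG mice lack mature B, T and NK cells but keep myeloid cells.

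MHC class II molecules are heterodimers at the surface of antigen-presenting cells that show peptides to CD4+ T cells. H2-Aa and H2-Ab1 encode the α and β chains of the I-A molecule, and H2-Eb1 encodes the β chain of I-E. Cd74 encodes the invariant chain, which guides newly made class II molecules to the endosome and fills their groove until a peptide takes its place. H2-DMa and H2-DMb1 encode the chains of H2-DM, which exchanges the remnant of the invariant chain for peptide. Ciita encodes the class II transactivator, which does not bind DNA itself but is recruited to proteins sitting on the conserved X and Y boxes of these promoters. Its transcription is inducible by IFN-γ, with IRF1 among the factors used, and in dendritic and B cells it has promoters of its own.

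The X and Y boxes are the sequence that these genes are known to share, and they were looked for in the 250 bases before the gene start in the RefSeq promoter table (GRCm38.p6), which held 4 of the 7 genes (H2-Aa, H2-Eb1, H2-DMa and H2-DMb1). The letters searched were ATTGG for the Y box core and AGNNACNNA for the X box core, on both strands, and their matches here did not overlap. The stretches from 130 to 21 bases before the start of 3 of the genes are shown to let the boxes be compared, written 5′ to 3′ along the gene, with X and Y box core matches on the gene strand in capitals. They lie at chr17:34287844-34287953 on the minus strand for H2-Aa, at chr17:34305737-34305846 on the plus strand for H2-Eb1 and at chr17:34153061-34153170 on the plus strand for H2-DMb1.
H2-Aa: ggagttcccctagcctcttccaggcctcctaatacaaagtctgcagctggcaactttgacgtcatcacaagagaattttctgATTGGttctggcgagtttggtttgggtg
H2-Eb1: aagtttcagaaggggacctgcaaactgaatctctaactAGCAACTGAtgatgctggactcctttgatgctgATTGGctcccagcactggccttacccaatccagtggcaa
H2-DMb1: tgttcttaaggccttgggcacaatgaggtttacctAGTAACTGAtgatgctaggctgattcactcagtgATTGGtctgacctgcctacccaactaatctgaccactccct
The Y box core began 48 bases before the start in H2-Aa, 59 in H2-Eb1 and 61 in H2-DMb1. The X box core began 92 bases before the start in H2-Eb1 and 95 in H2-DMb1, which places the start of the Y box 33 and 34 bases further on. H2-Eb1 and H2-DMb1 also shared a run of 13 identical letters, AACTGATGATGCT, that starts within the X box match and was found in the upstream bases of only these 2 of the 32851 windows of the table, on either strand. Of the 2 windows given for H2-DMa, 1 held a Y box core, 198 bases before its start, and neither held the X box letters. Such short motifs are common: ATTGG was present on either strand in 33.8% of all windows and AGNNACNNA in 40.5%, while both were present on the gene strand in 4.31%. For the letters TTCNNNGAA (the GAS element bound by STAT dimers) and GAAANNGAA (a core of interferon response elements) there was no match in the upstream windows of these genes, against 7.02% and 7.13% of all windows. A match is a description of the letters and not evidence that a factor binds there.

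The libraries held 9001051 to 13859727 reads on genes, and the authors' normalized count is the read count of a gene divided by 1 size factor per library, so that 1 read is worth 0.775 to 1.17 normalized counts. Myeloid blast markers (Mpo, Elane, Itgam, Hoxa9, Meis1 and others) had at least 3 reads in every library for 10 of 10 genes, and the globin genes were at 0. Stat3 had 2349 to 4429.8 normalized counts with overlapping genotypes, and counts per gene cannot separate the α and β transcripts. WT SP library 3 stood apart. Without it the number of genes called between the genotypes in SP rose from 12 to 1884. Between SP and BM in WT the number rose from 0 to 598. The fold changes of the MHC class II genes defined above that involve the WT SP group are therefore also given without this library. For all other genes named below, fold changes that involve the WT SP group include this library and are not given without it. Replicates are separate samples by their labels, and whether the SP and BM libraries of a number come from 1 mouse is not stated there.

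The I-A and I-E chain genes covered a wide range within each group, and the same libraries stood high or low for each of them. H2-Aa had 339.6, 86.9 and 280.1 normalized counts in WT SP libraries 1, 2 and 3, and 47.3, 289 and 57.6 in the Δβ SP libraries. In BM, H2-Aa had 108, 6.76 and 16.1 normalized counts in WT and 90.2, 119 and 4.14 in Δβ. The high libraries were WT SP 1, WT SP 3 and Δβ SP 2, the low ones WT BM 2 and Δβ BM 3, and the genotypes overlapped in both organs. H2-Ab1 had 310.0, 119 and 291 normalized counts in WT SP, 74.4, 333 and 70.5 in Δβ SP, 109, 41.7 and 56.4 in WT BM, and 52.2, 103 and 16.6 in Δβ BM. H2-Eb1 had 279, 66.8 and 213 normalized counts in WT SP, 29.5, 176 and 40.6 in Δβ SP, 69.5, 2.25 and 22.2 in WT BM, and 48.9, 49.1 and 2.07 in Δβ BM. The same 3 libraries were the highest and the same 2 the lowest, in varying order, and the 2 lowest values of H2-Eb1 rest on 2 reads each.

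The α and β chain of I-A were close to each other in 9 of the 12 libraries, where H2-Ab1 had 0.578 to 1.57 times the normalized counts of H2-Aa. In the other 3, WT BM 2, WT BM 3 and Δβ BM 3, the ratio was 6.17, 3.50 and 4.0. In those libraries H2-Aa had 6, 16 and 4 reads and H2-Ab1 had 37, 56 and 16, so H2-Ab1 fell less far than its partner where both were low.

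Cd74 and Ciita followed the same libraries. Cd74 had 821, 203 and 712 normalized counts in WT SP, 192, 972 and 139.9 in Δβ SP, 337, 4.51 and 58.4 in WT BM, and 275, 321 and 4.14 in Δβ BM. The difference between Δβ SP 2 and Δβ BM 3 was 235-fold, with 868 reads against 4. Ciita, at much lower counts, had 30.8, 9.54 and 33.5 normalized counts in WT SP and 19.4, 30.2 and 9.61 in Δβ SP. In BM, Ciita had 4.96, 1.13 and 2.01 normalized counts in WT and 8.70, 9.34 and 0 in Δβ. All 6 SP libraries lay above all 6 BM libraries for Ciita, although by a narrow margin, since the lowest SP libraries had 9 reads and the highest BM libraries 8. With 0 reads in Δβ BM 3 a level of up to 3 reads, or 3.11 normalized counts, is not excluded by counting alone.

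**Figure D1:**
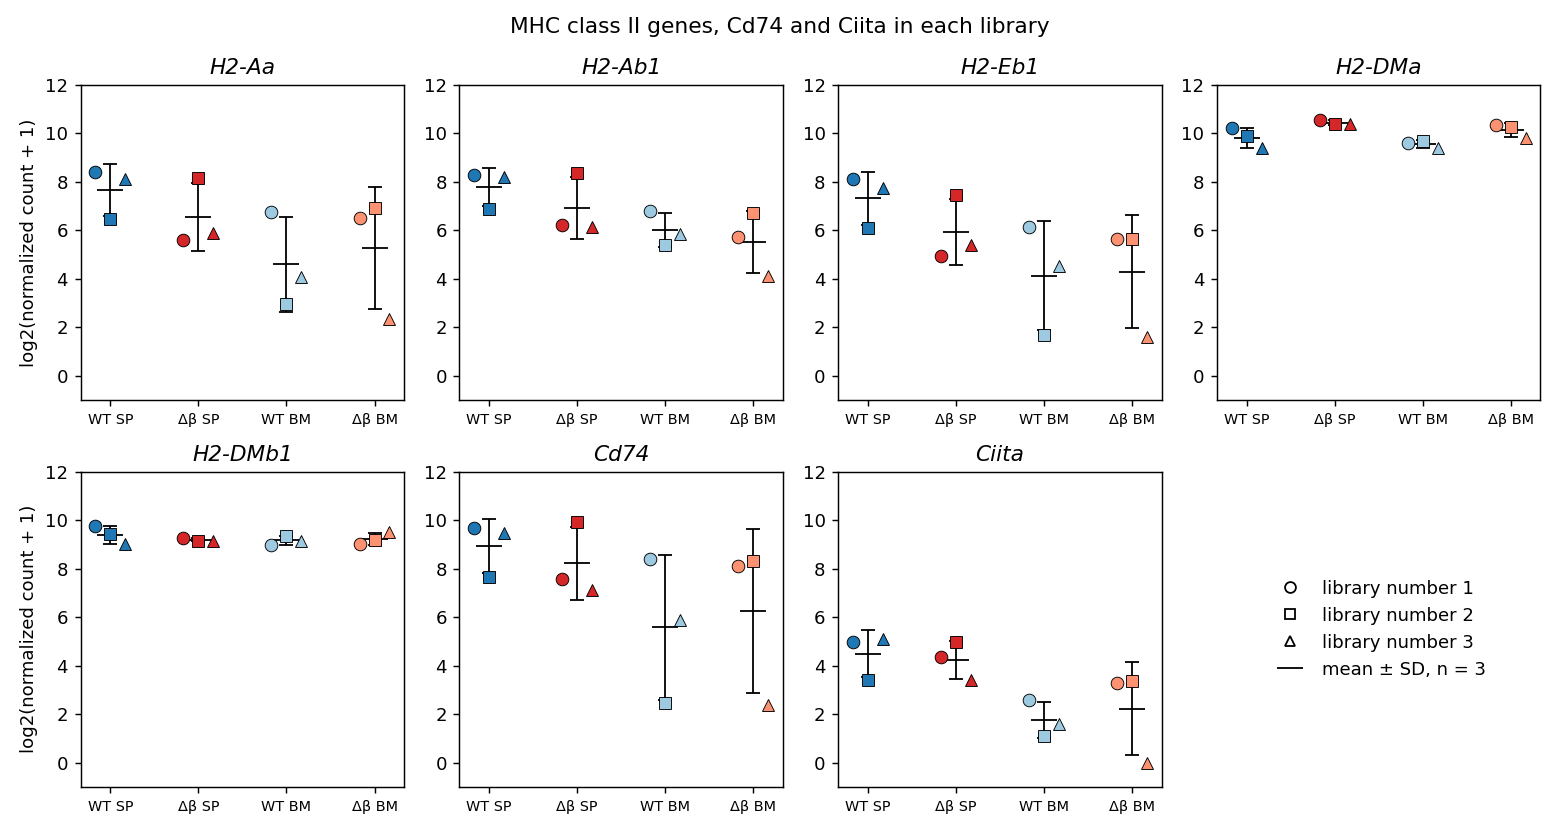
Level of each of the 7 genes in each library, as log2 of the normalized count plus 1 (vertical axis), for WT SP, Δβ SP, WT BM and Δβ BM (horizontal axis). Each symbol is 1 library, its shape the library number, and the bars are the mean ± SD of 3 libraries. H2-Aa, H2-Ab1, H2-Eb1, Cd74 and Ciita spread widely within the groups, while H2-DMa and H2-DMb1 stay within narrow bands, with every Δβ library above every WT library of its organ for H2-DMa.

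For 5 of the 7 genes (H2-Aa, H2-Ab1, H2-Eb1, Cd74 and Ciita) the 3 highest libraries were WT SP 1, WT SP 3 and Δβ SP 2, and the 2 lowest were WT BM 2 and Δβ BM 3. This pattern was picked after the values had been seen, and it was taken from H2-Aa, which therefore has it by construction. For Ciita the 2 lowest libraries are set apart by little, with 0 reads in Δβ BM 3 and 1 in WT BM 2 against 2 in WT BM 3. Over all 11476 tested genes, 8 had the pattern (0.0697%), the 5 genes named and Acsl5, Sar1b and Tctex1d1. On the scale of log2(normalized count + 1), the range over the 12 libraries was 7.56 for Cd74, 6.51 for H2-Eb1, 6.05 for H2-Aa, 5.11 for Ciita and 4.25 for H2-Ab1, where the median of all tested genes was 0.94. Ranges larger than that of Cd74 were found in 0.392% of the tested genes, and larger than that of H2-Ab1 in 4.01%. The range of H2-DMa was 1.17 and that of H2-DMb1 0.77, which were exceeded by 38.2% and 63.1% of the tested genes.

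**Figure D2:**
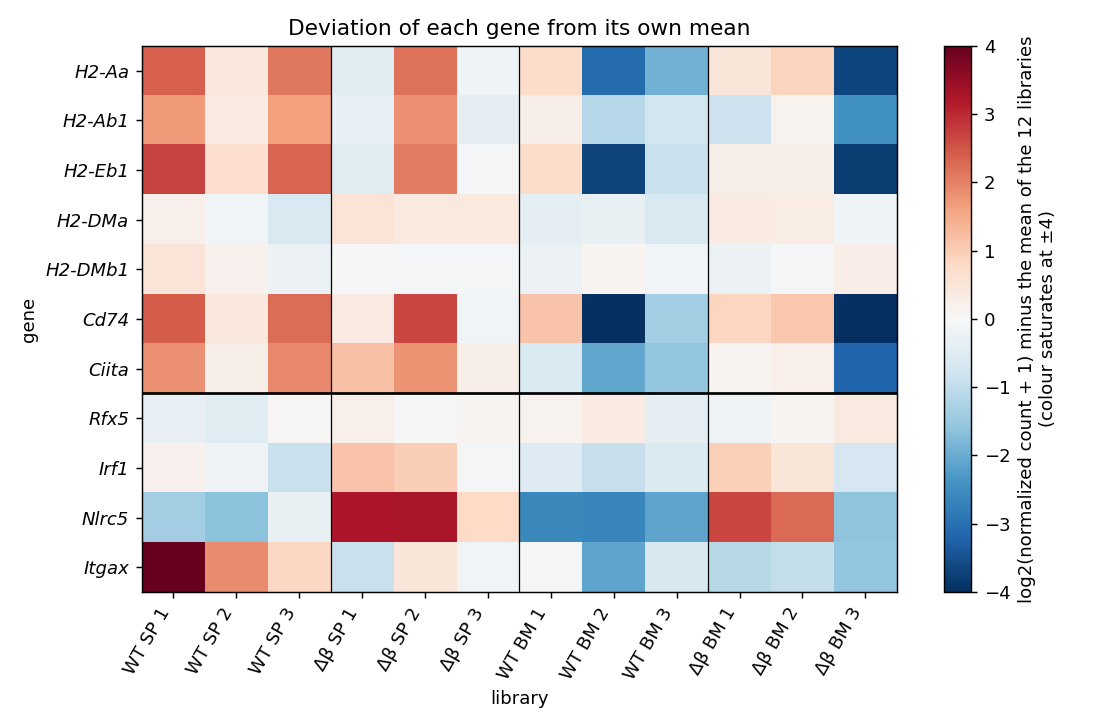
Deviation of each gene (rows) from its own mean over the 12 libraries (columns), in log2(normalized count + 1), with red above and blue below the mean; the 7 MHC class II genes are above the black line and 4 genes described in the text below it. The rows above the line other than H2-DMa and H2-DMb1 share the red of WT SP 1, WT SP 3 and Δβ SP 2 and the blue of WT BM 2 and Δβ BM 3, whereas Irf1 and Nlrc5 are red in Δβ libraries 1 and 2 of both organs.

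The first question of the design is whether loss of STAT3β changed these genes in blasts. For the I-A and I-E chains, Cd74 and Ciita no genotype difference exceeded the spread between replicates in either organ. In SP, H2-Aa had 236 ± 132 normalized counts in WT and 131 ± 137 in Δβ (SD, n = 3 each), a log2 fold change of -1.12 on the log2(normalized count + 1) scale with a 95% confidence interval of -3.95 to 1.71. The corresponding log2 fold changes in SP were -0.87 for H2-Ab1 (-2.50 to 0.77), -1.39 for H2-Eb1 (-4.25 to 1.46), -0.73 for Cd74 (-4.49 to 3.04) and -0.26 for Ciita (-2.28 to 1.76). In BM, H2-Aa had 43.7 ± 56.0 normalized counts in WT and 71.2 ± 59.8 in Δβ (SD, n = 3 each), and its log2 fold change was 0.65 (-2.18 to 3.49). The log2 fold changes in BM were -0.49 for H2-Ab1 (-2.13 to 1.15), 0.18 for H2-Eb1 (-2.68 to 3.04), 0.68 for Cd74 (-3.09 to 4.45) and 0.46 for Ciita (-1.55 to 2.48). These intervals include changes of more than 4-fold in 1 or both directions, so a genotype effect of that size is not excluded with 3 libraries a group. Without WT SP 3 the log2 fold changes in SP were -0.89 for H2-Aa, -0.67 for H2-Ab1, -1.18 for H2-Eb1, -0.46 for Cd74 and 0.05 for Ciita. Without WT BM 2 those in BM turned to -0.17 for H2-Aa, -1.03 for H2-Eb1 and -0.88 for Cd74. Without Δβ BM 3 the value in BM was 2.10 for H2-Aa, 1.52 for H2-Eb1, 2.64 for Cd74, 1.57 for Ciita and 0.20 for H2-Ab1.

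By limma with Benjamini-Hochberg adjustment over all tested genes, 0 of the 7 genes passed an adjusted p of 0.05 between the genotypes in SP (0.105% of all tested genes did) or in BM (0.0697%). At an unadjusted p under 0.05, 1 of 7, H2-DMa, passed in SP, where 14.9% of all tested genes did, and the same 1 of 7 passed in BM, where 2.59% did. Counts by edgeR's quasi-likelihood test and by DESeq2 on the recovered reads were the same, 0 adjusted and 1 unadjusted in each organ. The genotype effect differed between SP and BM for 0 of the 7 genes, at an adjusted and at an unadjusted p under 0.05, by limma, edgeR and DESeq2 (limma, all tested genes, 0% adjusted and 3.20% unadjusted). The median log2 fold change of the 7 genes was -0.73 in SP and 0.46 in BM, where that of all tested genes was -0.01 and -0.02.

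**Figure D3:**
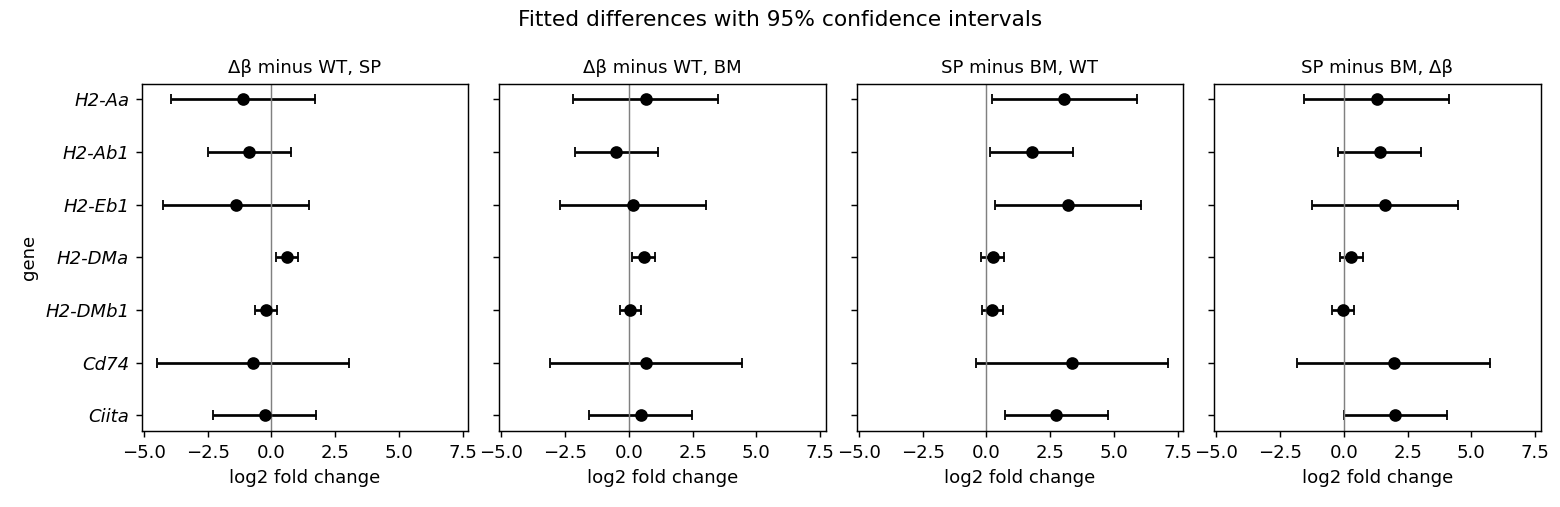
Fitted log2 fold change of each gene (rows) with its 95% confidence interval from limma (horizontal axis, on the log2(normalized count + 1) scale) for the genotype contrast (Δβ minus WT) within each organ and the organ contrast (SP minus BM) within each genotype. The intervals of H2-DMa lie above 0 in both genotype panels, at 0.17 to 1.06 in SP and 0.13 to 1.02 in BM, before any adjustment for the number of genes tested; in the organ panels Ciita lies above 0 in both.

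Of the 7 genes, only H2-DMa had no overlap of the genotypes within an organ, a count that in SP is about the share of all tested genes. Its normalized counts were 1179.5, 941 and 666 in WT SP and 1497, 1333 and 1327 in Δβ SP. In BM, H2-DMa had 779.9, 834 and 669.7 normalized counts in WT and 1289, 1243 and 905 in Δβ. Each Δβ library lay above each WT library of the same organ, so 1 of 7 genes did not overlap in SP and 1 of 7 in BM, where 17.3% and 7.63% of all tested genes did not. The fold change was 1.53 in SP (log2 0.61, standard error 0.20, limma adjusted p = 0.244) and 1.49 in BM (log2 0.58, standard error 0.20, limma adjusted p = 1.0). With SP and BM averaged by number, H2-DMa was higher in Δβ by 0.60 on the log2 scale (standard error 0.16, 95% confidence interval 0.22 to 0.98, limma adjusted p = 0.315). In that comparison 0 of 7 genes passed the adjusted threshold by limma and by edgeR (0.148% of all tested genes by limma), 1 of 7 had an unadjusted p under 0.05 (9.91%), and 1 of 7 did not overlap (15.6%). DESeq2 called H2-DMa over both organs, with a log2 fold change of 0.63 and an adjusted p of 0.0170, a test in which 3.68% of all tested genes passed, and over all the alternatives the adjusted p was 0.0170 to 0.779. Without WT SP 3, the lowest SP library for this gene, the log2 fold change in SP was 0.39 (limma adjusted p = 0.133), and without WT 3 over both organs it was 0.44 (limma adjusted p = 0.263).

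H2-DMb1, which encodes the partner chain, had 867, 689 and 510.5 normalized counts in WT SP, 613, 571 and 571 in Δβ SP, 509, 650.0 and 567 in WT BM, and 511, 575 and 722 in Δβ BM. The genotypes overlapped in both organs, with log2 fold changes of -0.20 in SP (95% confidence interval -0.62 to 0.22) and 0.06 in BM (-0.36 to 0.48). Without WT SP 3 the value of H2-DMb1 in SP was -0.40 (limma adjusted p = 0.120). The ratio of H2-DMa to H2-DMb1 within a library was 1.30 to 1.37 in WT SP and 2.32 to 2.44 in Δβ SP. In BM the ratio was 1.18 to 1.53 in WT and 2.52, 2.16 and 1.25 in Δβ libraries 1, 2 and 3, so Δβ BM 3 lay within the WT range. The ratio was formed after the values had been seen and is given as a description.

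The second question is whether blasts of SP and BM differed. Every one of the 7 genes had a higher mean log2 level in SP than in BM in WT, and 6 of 7 in Δβ, yet none passed the adjusted threshold. In WT the log2 difference of SP against BM was 2.75 for Ciita (95% confidence interval 0.73 to 4.76, limma adjusted p = 0.580), 3.06 for H2-Aa (0.23 to 5.89), 1.78 for H2-Ab1 (0.14 to 3.41), 3.19 for H2-Eb1 (0.34 to 6.05) and 3.36 for Cd74 (-0.41 to 7.13). The DM genes differed by far less in WT, by 0.25 for H2-DMa (-0.19 to 0.70) and 0.23 for H2-DMb1 (-0.19 to 0.66). In Δβ the log2 difference was 2.02 for Ciita (0.01 to 4.04, limma adjusted p = 1.0), 1.29 for H2-Aa (-1.54 to 4.12), 1.40 for H2-Ab1 (-0.23 to 3.04), 1.62 for H2-Eb1 (-1.24 to 4.48), 1.95 for Cd74 (-1.82 to 5.72), 0.29 for H2-DMa (-0.16 to 0.73) and -0.03 for H2-DMb1 (-0.45 to 0.39).

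At an unadjusted p under 0.05 by limma, 4 of the 7 genes (Ciita, H2-Aa, H2-Ab1 and H2-Eb1) were higher in SP in WT, where 8.27% of all tested genes passed, and 1 of 7 (Ciita) in Δβ, where 1.77% did. At the adjusted threshold of limma 0 of 7 passed in either genotype, and 0% of all tested genes. The edgeR and DESeq2 tests also called 0 of the 7 genes in both, with 3 and 3 at an unadjusted p in WT and 0 and 1 in Δβ. Over all 11476 tested genes edgeR called 0 in either genotype, while DESeq2 called 111 in WT and 2 in Δβ. Shares of all tested genes at an unadjusted p are not given for these 2 tests. SP and BM did not overlap for 2 of 7 genes in WT (Ciita and H2-Ab1, 11.5% of all tested genes) and for 2 of 7 in Δβ (Ciita and H2-DMa, 7.42%). Without WT SP 3 the log2 difference in WT was 2.44 for Ciita (limma adjusted p = 0.179), 2.83 for H2-Aa, 1.58 for H2-Ab1 2.98 for H2-Eb1, 3.09 for Cd74, 0.47 for H2-DMa (limma adjusted p = 0.121) and 0.43 for H2-DMb1 (limma adjusted p = 0.142). The values of the DM genes thus rose by over 1.5 times. The genes at an unadjusted p under 0.05 became Ciita, H2-DMa and H2-DMb1, while H2-Aa, H2-Ab1 and H2-Eb1 no longer were. In that setting 598 of the 11476 tested genes passed the adjusted threshold in WT, against 0 with WT SP 3. The share of all tested genes at an unadjusted p is not given there, so the change is not read as particular to these genes. In Δβ the values for H2-Aa, Cd74 and H2-DMb1 changed sign without Δβ BM 3, to -0.16, -0.00081 and 0.11.

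An average of the organ difference over both genotypes was added after the values had been seen. It was 2.39 on the log2 scale for Ciita (95% confidence interval 0.96 to 3.81), 1.59 for H2-Ab1 (0.43 to 2.75), 2.41 for H2-Eb1 (0.39 to 4.43), 2.17 for H2-Aa (0.17 to 4.18), 2.66 for Cd74 (-0.01 to 5.32), 0.27 for H2-DMa (-0.04 to 0.59) and 0.10 for H2-DMb1 (-0.20 to 0.40). The adjusted p from limma was 0.845 for Ciita, and 0 of 7 genes passed (0% of all tested genes), with 4 of 7 at an unadjusted p under 0.05 (5.76%). The edgeR and DESeq2 tests called 0 of the 7 genes, with 3 at an unadjusted p by each. Over all 11476 tested genes edgeR called 0 and DESeq2 called 37, and their shares at an unadjusted p are not given. Ciita was 1 of 7 genes without overlap of the 6 SP and the 6 BM libraries, which held for 0.270% of all tested genes. Without WT SP 3 the average was 2.23 for Ciita (limma adjusted p = 0.166), 0.38 for H2-DMa (limma adjusted p = 0.152), 1.49 for H2-Ab1, 2.30 for H2-Eb1, 2.06 for H2-Aa, 2.52 for Cd74 and 0.20 for H2-DMb1. The first 4 of these had an unadjusted p under 0.05, and H2-Aa no longer did. In that setting 5 of the 11476 tested genes passed the adjusted threshold, and the share at an unadjusted p is not given.

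Genes that mark other cells varied between the libraries. In bulk RNA more cells of a type and more RNA per cell cannot be told apart. The B cell marker Ms4a1, which encodes CD20, had reads in 6 of 6 SP libraries, at 0.775 to 19.0 normalized counts, and in 1 of 6 BM libraries, at 1.01. Its order within SP followed the class II genes in part: Ms4a1 was highest in Δβ SP 2, but in WT SP it had 6.84, 9.54 and 9.13 normalized counts in libraries 1, 2 and 3, the lowest of them in the library highest in H2-Aa. Over the whole list of 9 B cell markers the summed normalized counts were 453 to 642 in SP and 328 to 465 in BM for WT, and 451 to 947 in SP and 374 to 713 in BM for Δβ, most of it from Cd79b and Cd22 (the latter highest in Δβ SP 1, at 479), while Pax5 and Ebf1 had at most 5.34 and 2.12. Over the list of 9 conventional dendritic cell markers the sums were 386 to 2253 in SP and 460.4 to 1060.1 in BM for WT, and 349 to 849 in SP and 421 to 911 in BM for Δβ. The top of that range was WT SP 1, where Itgax, which encodes CD11c, had 1624 normalized counts against 19.2 to 326 in the other libraries. Each SP library also lay above each BM library of its genotype for Itgax, where 11.5% of all tested genes did not overlap in WT and 7.42% in Δβ. Its log2 difference of SP against BM was 3.25 in WT (limma adjusted p = 0.511) and 1.03 in Δβ. Of the 4 tested markers of this list, 2 were higher in SP in each genotype. Over the 10 macrophage markers the sums were 2688 to 4789.9 in SP and 5129 to 8065 in BM for WT, and 2878 to 4574 in SP and 3718 to 4761 in BM for Δβ, mostly from Adgre1 and Vcam1, with C1qa, C1qb and C1qc at no more than 14.8, 30.8 and 5.70. The 6 plasmacytoid dendritic cell markers summed to 411 to 1157 in SP and 219 to 746 in BM for WT, and 529 to 1232 in SP and 405 to 900.1 in BM for Δβ, nearly all from Tcf4. The 5 T and NK cell markers summed to 26.2 to 837 in SP and 93.5 to 360.2 in BM for WT, and 125 to 195 in SP and 134 to 472 in BM for Δβ. Nkg7 made up 828 of the top sum, in WT SP 3, whereas Δβ BM 1 had the most Cd8a, Cd3d and Cd3e, at 103, 63.1 and 48.9 normalized counts against at most 17.8, 11.1 and 17.1 elsewhere. The part of such cells in the class II levels was not tested.

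Compared per length of annotated exon (the union of GENCODE M21 exons on GRCm38), the genes differed widely in level. The H2-DM genes had the highest medians, at medians over the 12 libraries of 341 normalized counts per kb for H2-DMb1 (303 to 516) and 308 for H2-DMa (193 to 434). Cd74 followed at 143 per kb (2.47 to 579), then H2-Ab1 at 34.5 (6.45 to 129.6), H2-Eb1 at 25.2 (1.07 to 144), H2-Aa at 23.3 (1.09 to 89.4) and Ciita at 0.990 (0 to 3.51). Each neighbouring pair in this order overlaps in range over the 12 libraries, but the genes share the libraries, so ranges alone do not tell whether a pair is separated. Within each library H2-Aa lay above Ciita, whereas in WT BM 2 and Δβ BM 3 Cd74 lay below H2-Ab1. The DM genes lay above the chain genes and Ciita in every library. In WT SP alone Cd74 had 345 ± 196 normalized counts per kb, beside 409.8 ± 106 for H2-DMb1 and 269 ± 74.6 for H2-DMa (SD, n = 3). In WT BM, Cd74 had 79.5 ± 106 per kb, beside 342 ± 42.2 for H2-DMb1 and 221 ± 24.2 for H2-DMa.

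In the RefSeq annotation of GRCm38.p6, 5 of the 7 genes lie on chromosome 17, in the order H2-DMa (34119693 to 34139101), H2-DMb1 (34153191 to 34160229), H2-Ab1 (34263227 to 34269418), H2-Aa (34282744 to 34287823, minus strand) and H2-Eb1 (34305867 to 34316674). Ciita lies on chromosome 16 from 10480014 to 10531064. The 5 genes that varied together thus include 3 neighbours within the class II region and 2 genes elsewhere in the genome, while the DM genes of the same region varied on their own.

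Among the other genes of the class II pathway none passed the adjusted threshold of limma in any comparison. Of 24 symbols listed, 21 were in the table and 18 were tested. At an unadjusted p under 0.05, 1 was higher and 2 were lower in Δβ SP than in WT SP, 0 differed between the genotypes in BM, 1 was higher and 2 were lower in SP than in BM in WT, and 0 differed in Δβ. These are 3 of 18 in SP and 3 of 18 in WT, where 14.9% and 8.27% of all tested genes passed, and 0 of 18 in BM and in Δβ, where 2.59% and 1.77% did. Of the RFX subunits, which bind the X box, Rfx5 had 259.7 to 467 normalized counts over the 12 libraries, Rfxap 230.5 to 403 and Rfxank 158 to 216. None of these 3 shared the class II order of libraries. Nfya, a subunit of the Y box factor NF-Y, had a log2 fold change of 0.37 between the genotypes in SP (limma adjusted p = 0.294) and -0.42 between SP and BM in WT (limma adjusted p = 0.580), and Creb1, another X box binding factor, -0.27 between SP and BM in WT (limma adjusted p = 0.597). Neither overlapped between the groups in those comparisons, where 17.3% of all tested genes did not overlap between the genotypes in SP and 11.5% between SP and BM in WT. Creb1 was also lower in SP without overlap in Δβ, at -0.18, where 7.42% of all tested genes did not overlap. Averaged over both genotypes its organ difference was -0.23 (limma adjusted p = 0.845). All SP libraries lay below all BM libraries for Creb1, a lack of overlap that held for 0.270% of all tested genes. The NF-Y subunits did not move together. Nfyc also did not overlap but went the other way, at -0.09 (limma adjusted p = 0.732) and 0.23 (limma adjusted p = 0.647), and Nfyb overlapped in both comparisons. H2-Oa and H2-Ob, which encode the H2-DO inhibitor of H2-DM, had 28.4 to 55.6 and 36.3 to 99.3 normalized counts, and H2-DMb2, the second DM β chain gene, had 34.5 to 87.8. H2-DMb1 and H2-DMb2 are near copies, so reads between them may be split by the counting. Ctss, which encodes the protease cathepsin S that trims the invariant chain, had 1772 to 14501 normalized counts in WT SP, with its highest value in WT SP 1, and 1518 to 5101 in the other groups.

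Of 14 listed genes leading from IFN-γ to Ciita, 13 were tested and 0 passed the adjusted threshold of limma in any comparison, with 3 higher and 3 lower in Δβ SP at an unadjusted p under 0.05 and 1 higher in Δβ BM, where 14.9% and 2.59% of all tested genes passed. Between SP and BM 3 were higher in SP in WT (8.27% of all tested genes passed) and 0 differed in Δβ (1.77%). The 3 were Spi1, which encodes the myeloid factor PU.1, at a log2 difference of 0.66 (limma adjusted p = 0.580), Ifngr1, a chain of the IFN-γ receptor, at 0.47, and the kinase gene Jak1 at 0.37 (limma adjusted p = 0.600 for both). Irf1, an IFN-induced factor of the Ciita promoter, had 586 to 1223 normalized counts in WT SP, 2396, 2145 and 1034 in Δβ SP, and, in BM, 564 to 759 in WT and 2072, 1499 and 681 in Δβ. The high libraries were Δβ 1 and Δβ 2 of both organs, and Δβ 3 lay within the WT range of its organ. Nlrc5, the transactivator of MHC class I and a relative of Ciita, had 51.3, 42.4 and 109 normalized counts in WT SP, 1287, 1299 and 235 in Δβ SP, 21.8, 21.4 and 30.2 in WT BM and 867, 647 and 43.5 in Δβ BM, a log2 fold change of 3.54 in SP and 3.54 in BM (standard error 1.01 in each, limma adjusted p = 0.218 and 1.0). In WT, Nlrc5 was higher in each SP than in each BM library, as Ciita was, with a log2 difference of 1.32 (limma adjusted p = 0.714). In that comparison 11.5% of all tested genes did not overlap. In Δβ the organs overlapped for Nlrc5, with a log2 difference of 1.33. In Δβ SP 1 the Nlrc5 level was close to that of Δβ SP 2, while H2-Aa was 47.3 against 289 and Cd74 192 against 972 normalized counts. WT SP 1 and WT SP 3, in turn, had 2 of the 3 highest levels of Ciita and of the chain genes with low Nlrc5. Ifng itself had 0 to 3.20 normalized counts in SP, 0 in WT BM and 10.9, 0 and 0 in Δβ BM, and its highest library, Δβ BM 1, was also the one with the most Cd8a, Cd3d and Cd3e.

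**Figure D4:**
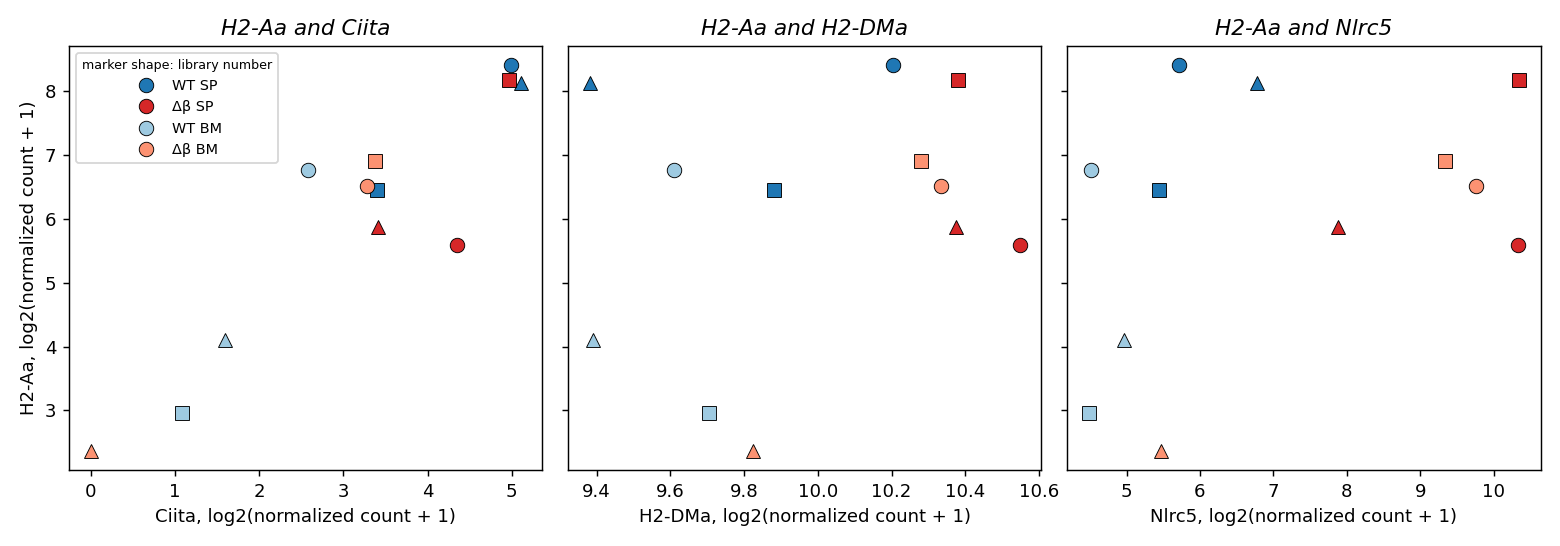
H2-Aa (vertical axis) against Ciita, H2-DMa and Nlrc5 (horizontal axes), each as log2(normalized count + 1), with 1 symbol per library, coloured by group and shaped by library number. The libraries high in H2-Aa (WT SP 1, WT SP 3 and Δβ SP 2) are those high in Ciita, whereas along the Nlrc5 axis Δβ SP 1 and Δβ SP 2 sit side by side at 1287 and 1299 normalized counts and far apart in H2-Aa.

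The genes most like the class II set were searched among all tested genes outside the 7. The measure was the root mean square difference of their log2 deviations from the mean profile of the 7 genes over the 12 libraries. A flat profile would lie at 1.27. The 7 genes themselves lay at 0.47 (H2-Ab1), 0.50 (Ciita), 0.67 (H2-Aa), 0.77 (H2-Eb1), 1.19 (Cd74), 1.21 (H2-DMa) and 1.32 (H2-DMb1). Cd74 and the DM genes thus lay about as far from the mean profile as a flat profile. Nearest outside the 7 were Slamf7 at 0.57, Tmem176a at 0.64, A530032D15Rik at 0.66, Marcks at 0.77, Ccm2l at 0.78, Fam83f at 0.79, Isg15 at 0.80 and Synj2 at 0.82. Slamf7 encodes a cell surface receptor of immune cells and had 8.54 to 67.2 normalized counts in SP and 3.11 to 40.9 in BM. Tmem176a, which encodes a membrane protein, had 5.34 to 31.5 normalized counts in SP and 1.04 to 10.9 in BM. Nearest to the profile of Ciita alone, where a flat profile would lie at 1.56, were Tmem176a at 0.68, Limch1 at 0.87, Slamf7 at 0.88, Cxcl10 at 0.89 and Cd40 at 0.94. Cxcl10, an IFN-induced chemokine, had 18.2 to 56.8 normalized counts in SP and 0 to 15.2 in BM, without overlap, which held for 0.270% of all tested genes. Because Cxcl10 was picked for its likeness to Ciita, which had no overlap either, its separation is not independent of that of Ciita. Cd40, a costimulatory receptor of antigen-presenting cells, had 11.7 to 33.0 normalized counts in SP and 1.98 to 32.6 in BM. On the same measure the class II genes lay at 0.74 (H2-Ab1), 0.76 (H2-Aa), 0.88 (H2-Eb1), 1.18 (Cd74), 1.44 (H2-DMa) and 1.59 (H2-DMb1) from Ciita. The 2 DM genes thus lay about as far from Ciita as a flat profile, and none of these likenesses was tested.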

How the data were processed

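Per the labels, poly-A RNA of sorted Venus-positive blasts was sequenced in 12 libraries (3 per genotype and organ). The submitters' processing notes name FastQC, STAR, featureCounts, DESeq2 and the builds GRCm38 and mm10. The authors deposited a normalized signal per gene, formed from the reads of a gene by dividing them by a size factor for its library; 100% of the values were whole multiples of the value of 1 read (tolerance 0.001), from which reads were recovered. 6 further columns of no labelled sample were not used. Depth was 9001051 to 13859727 reads on genes; limits of 3 reads cover counting error only.

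The main test was a limma 3.58.1 fit (R 4.3.3, moderated with a mean-variance trend) of 11476 genes (mean of 10 or more), on log2(normalized count + 1), with 1 mean per group, a shared spread and Benjamini-Hochberg adjustment. The test over both organs used the average of the SP and BM libraries of a genotype and number. The p-values measure only the spread between these samples. edgeR 4.0.16 and DESeq2 1.42.0 on recovered reads, other pseudocounts, filters and scalings, a replicate block and each library left out were the alternatives. The main limma fit, edgeR and DESeq2 were tested on simulated counts, and the other steps were not.

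As a pairing check, deviations from the group means were correlated across genes: same-numbered SP and BM libraries gave r = 0.608 to 0.664 in Δβ and -0.237 to -0.009 in WT, and WT and Δβ libraries of an organ gave -0.166 to 0.202. The numbers thus paired SP with BM in Δβ only, a pairing that rests on these values and not on the labels.

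The 7 genes and the gene lists were chosen with earlier results of these data known. Named besides the members are fixed genes of the class II and IFN-γ lists, any list gene past the adjusted threshold (none), and the 8 and 5 tested genes nearest to the members' mean profile and to Ciita; other genes named were chosen after their values were seen. Some list genes are not reported here singly, and list counts and sums are over the whole lists.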

Additional observations from a re-analysis of the deposited data

How the results depend on the processing

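Of the 7 genes, 0 passed an adjusted p of 0.05 in each comparison under each alternative that was run, with 1 exception: DESeq2 called 1 gene, H2-DMa, over both organs, where limma called 0. The cause was not tested. With the replicate block, 0 of the 7 genes were called in each comparison, and the block changed no call. At an unadjusted p under 0.05 it gave 5 of the 7 genes instead of 4 for SP against BM in WT and 6 instead of 4 over both genotypes. In Δβ, the genotype whose numbers paired, it gave 2 instead of 1. The share of all tested genes at an unadjusted p with the block is not given beside these counts. Over all tested genes the count called between the genotypes in SP was 12 with limma, 1 with the replicate block and 457 with DESeq2. In BM it was 8, 1 and 37, and over both organs 17, 55 and 422. For these genotype comparisons the block joined WT and Δβ samples of the same number, which come from different mice. Such libraries of an organ did not pair in the check above (r = -0.166 to 0.202), so the counts of 1, 1 and 55 are not results of a block by mouse.

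Direction turned for the values below, in all but 3 cases on leaving out 1 library (over both organs, 1 number of a genotype). Leaving out each library, the log2 difference between Δβ and WT in SP was -0.81 to 0.16 for Ciita. In BM it was -0.17 to 2.10 for H2-Aa, -1.08 to 0.20 for H2-Ab1, -1.03 to 1.52 for H2-Eb1, -0.0790 to 0.17 for H2-DMb1, -0.88 to 2.64 for Cd74 and -0.11 to 1.57 for Ciita. Over both organs it was -1.05 to 0.66 for H2-Aa, -1.52 to 0.20 for H2-Eb1, -1.12 to 1.22 for Cd74 and -0.37 to 0.87 for Ciita, and besides this Cd74 (-0.0217) became 0.0195 with TMM scaling and 0.0654 with quantile normalization, and Ciita (0.10) became -0.0657 with a pseudocount of 0.25. The difference of the genotype effect between the organs was -1.10 to 0.21 for H2-Ab1, -0.19 to 0.23 for H2-DMa and -3.36 to 0.15 for Cd74. SP against BM in Δβ was -0.16 to 2.11 for H2-Aa, -0.14 to 0.11 for H2-DMb1 and -0.00081 to 2.98 for Cd74. H2-DMa stayed higher in Δβ under every alternative, by 0.39 to 0.80 in SP and 0.48 to 0.74 in BM, and Ciita stayed higher in SP, by 2.0 to 3.30 in WT and 0.92 to 2.70 in Δβ.

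Depth limits Ciita in BM, where 3 of 6 libraries had fewer than 3 reads, and H2-Eb1, where 2 of 6 did.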
